A study of Rattus norvegicus with 6 samples.

Results

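The genes described here carry acid, bicarbonate and glutamine across kidney tubule cells or take part in making ammonia. They are Slc9a3, Slc4a1, Slc4a4, Car2, Car4, Car12, Glud1, Pck1 and Slc38a3, chosen by function, with earlier results of these data known. A gene was found through the transcript accession that the array files give for each feature. This yielded 9 of the 15645 genes named on the array, with 18 array features, and all 9 were among the 32956 transcripts tested. RNA came from the renal cortex of male Sprague-Dawley (Crl:CD(SD)) rats that were 5 weeks old when bought. Of 6 rats, 3 received corn oil (vehicle) and 3 received TBBC, which is thiobis(6-tert-butyl-m-cresol) in its 4,4' form, an antioxidant for rubber and plastics, at 300 mg/kg/day. Both treatments lasted 4 weeks, and each rat was measured on 1 array. The comparison asks how a month of TBBC dosing altered the cortex at the level of RNA.

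The proximal tubule recovers most filtered bicarbonate. A sodium-proton exchanger in the brush border secretes acid, carbonic anhydrases in the lumen and in the cell turn bicarbonate into carbon dioxide and back, and a sodium-bicarbonate cotransporter on the blood side returns bicarbonate to the circulation. The same cells take up glutamine and strip it of nitrogen, which leaves in urine as ammonium, while the carbon skeleton is burned or turned into glucose with release of new bicarbonate. Further down the nephron, intercalated cells of the collecting duct secrete acid with a proton pump and pass bicarbonate to the blood through a chloride exchanger.

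None of the 9 genes passed the threshold, an adjusted p of 0.05 in limma over all transcripts, while 0.531% of all transcripts did (0.255% higher and 0.276% lower in TBBC rats). Levels are log2 of the processed signal over the array's 75th percentile. Car2 and Slc4a1 had all 3 TBBC rats below all 3 vehicle rats, by 1.49-fold and 2.03-fold in the mean, and Car4 had all 3 above, by 1.53-fold. These 3 genes were also those with an unadjusted p under 0.05, a count of 3 of 9 where 20.0% of all transcripts had one. Groups did not overlap in 28.3% of all transcripts (15.2% with TBBC below, 13.1% with TBBC above), so 3 of 9 is near that share. The median log2 fold change of the 9 genes was -0.17, against -0.02 over all transcripts tested, and 6 of 9 had a mean below vehicle, against 53.5% of all transcripts.

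**Figure D1:**
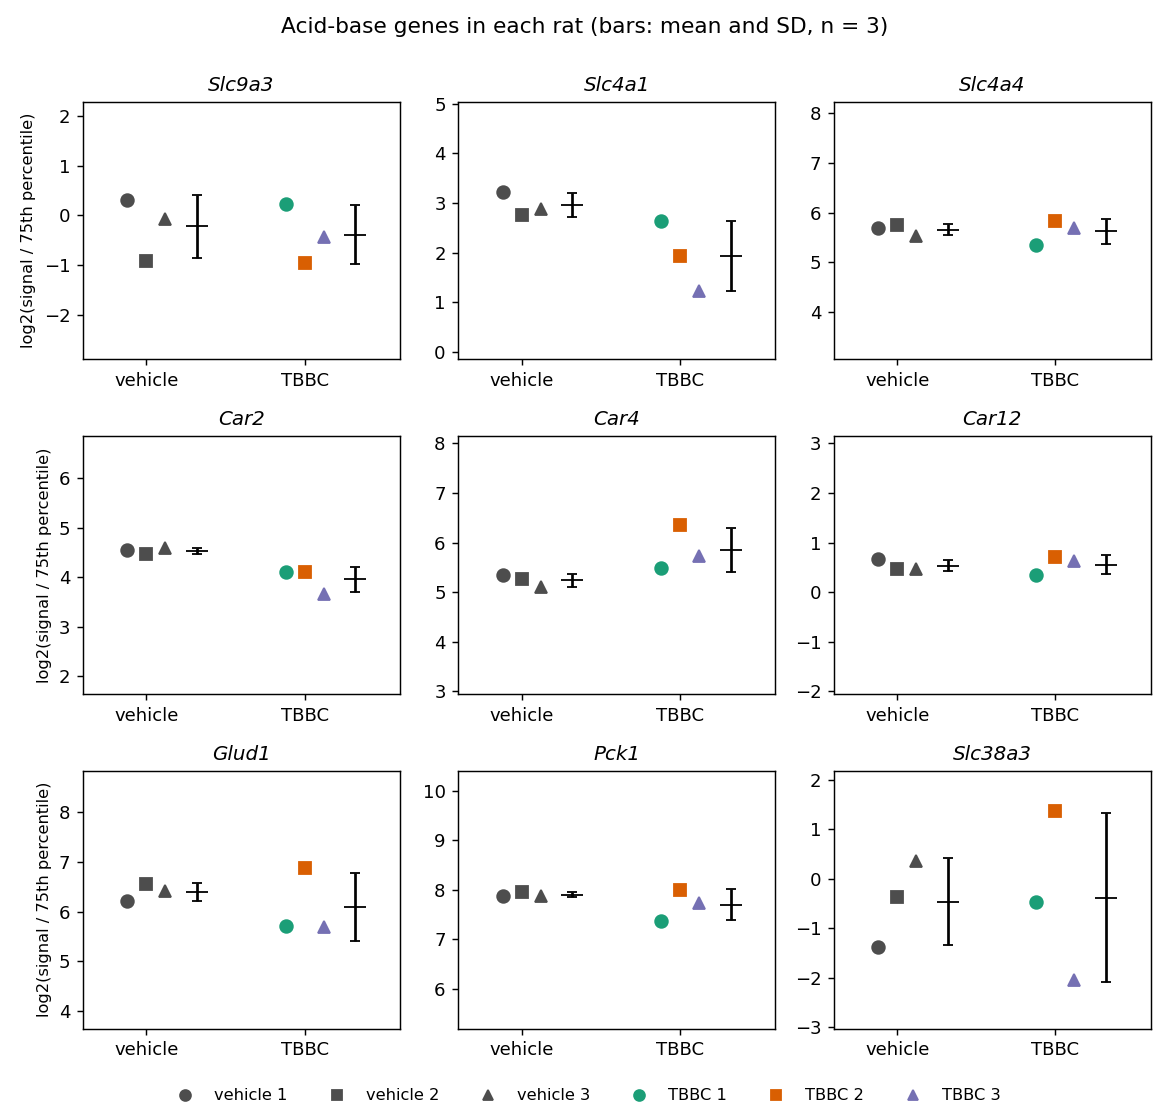
Level of each gene in each rat, as log2 of the signal over the array's 75th percentile, with the mean and SD of each group (n = 3); every panel spans the same number of log2 units. The TBBC rats lie below all vehicle rats for Car2 and Slc4a1 and above them for Car4, and Slc38a3 and Slc4a1 spread most among the TBBC rats.

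The arrays themselves set 2 conditions on these values. From 67.1% (TBBC 2) to 70.9% (TBBC 3) of features lay well above background on an array, and all 18 features of the acid-base genes did so on all 6 arrays. Slide 1, read in scan 1, held the vehicle rats together with TBBC 1, and slide 2, read in scan 2, held the other TBBC rats, so a difference between slides and a difference between TBBC 1 and the other TBBC rats cannot be told apart. No vehicle rat was on slide 2, so the distance of TBBC 2 and TBBC 3 from vehicle also holds any difference between slides. The TBBC rats also varied more, with an SD above that of the vehicle rats in 8 of the 9 genes and in 74.3% of all transcripts. Only the TBBC rats were spread over both slides, so their SD also holds any difference between slides. Proximal tubule markers, which define the labelled tissue, were measured in every rat. All 14 of a marker list were tested, 0 passed (3 at an unadjusted p under 0.05) and 13 had a mean below vehicle. Their median log2 fold change was -0.31, with a summed level of 2241 to 2463 in vehicle and 1825 to 2271 in TBBC rats. RNA from whole cortex cannot tell fewer cells of a type from less RNA per cell.

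Slc9a3 encodes NHE3, the sodium-proton exchanger of the brush border. Its brightest feature read 0.32, -0.91 and -0.07 in vehicle 1, 2 and 3 and 0.23, -0.96 and -0.44 in TBBC 1, 2 and 3. The vehicle rats alone spanned 1.23 log2 units there, and the groups overlapped throughout. TBBC minus vehicle gave a log2 fold change of -0.17 ± 0.41 (SE; 95% interval -1.16 to 0.82; adjusted p = 0.859). The 2 dimmer features of Slc9a3 varied far less and gave another picture. One read -2.23, -2.15 and -1.95 in vehicle against -2.46, -2.63 and -2.32 in TBBC, with a log2 fold change of -0.36 ± 0.13 (SE, adjusted p = 0.206 when every feature was tested alone). The other read -3.42, -3.36 and -3.22 against -3.46, -3.58 and -3.77, with -0.27 ± 0.12 (SE, adjusted p = 0.291). In both of these the TBBC rats lay below all vehicle rats, and neither passed. Without TBBC 2 or without vehicle 1 the sign of the brightest feature turned, to 0.12 and 0.10.

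Car4 encodes a carbonic anhydrase tethered to the outer face of the membrane, in the kidney chiefly on proximal tubule cells and also on some capillaries. Its level, measured by only 1 feature, was 5.34, 5.27 and 5.10 in the vehicle rats and 5.49, 6.35 and 5.72 in TBBC 1, 2 and 3. All TBBC rats were above the vehicle range, TBBC 2 by the widest margin and TBBC 1 by little. On the log2 scale the difference was 0.62 ± 0.23 (SE; 95% interval 0.06 to 1.17; adjusted p = 0.215). Without TBBC 2 it was 0.37, and within slide 1, where TBBC 1 is the only treated rat and a test would rest on 1 sample, 0.25. With slide as a random block it was 0.55 (adjusted p = 0.299). Of 11 endothelial markers tested 0 passed (4 at an unadjusted p under 0.05), and their median log2 fold change was -0.11, with a summed level of 83.9 to 87.7 in vehicle and 70.8 to 82.7 in TBBC rats.

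Car2 encodes the soluble carbonic anhydrase of the cytoplasm, found in proximal and intercalated cells and in red blood cells. Only 1 feature measured Car2. The vehicle rats were close together at 4.55, 4.46 and 4.58, and the TBBC rats read 4.10, 4.10 and 3.67. The lowest vehicle rat stood above the highest TBBC rat, and TBBC 3 was lowest. That is a log2 fold change of -0.58 ± 0.15 (SE; 95% interval -0.94 to -0.22; adjusted p = 0.122), the smallest p among the 9 genes. It was -0.43 within slide 1 and -0.55 with slide as a random block (adjusted p = 0.163). The adjusted p lay between 0.0673 and 0.435 over the alternatives run.

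Car12, a carbonic anhydrase that spans the membrane with its active site outside the cell, showed no separation of the groups. Its levels were 0.66, 0.47 and 0.46 in vehicle and 0.34, 0.71 and 0.62 in TBBC rats. Its log2 fold change was 0.02 ± 0.14 (SE; 95% interval -0.31 to 0.35; adjusted p = 0.948), an interval that holds changes of up to 1.28-fold upward and down to 0.809 of the vehicle level. The dimmer of its 2 features gave 0.01 ± 0.16 (SE). The sign of so small a value is not settled: it turned without vehicle 2, vehicle 3, TBBC 2 or TBBC 3, and was -0.05 without TBBC 2. Set against each other within an array, Car4 stood higher relative to Car2 in every TBBC rat. Taken from the vehicle mean, the log2 ratio of Car4 to Car2 was 0.68, 1.54 and 1.36 in TBBC 1, 2 and 3 and from -0.19 to 0.11 in the vehicle rats. This pair was chosen after its values were seen and was not tested.

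Slc4a4 encodes NBCe1, the cotransporter by which bicarbonate leaves the proximal cell. It was among the steadiest genes, at 5.68, 5.74 and 5.53 in vehicle and 5.34, 5.83 and 5.69 in TBBC rats. The TBBC rats fell on both sides of the vehicle range, with TBBC 1 below and TBBC 2 above it. The log2 fold change was -0.03 ± 0.16 (SE; 95% interval -0.41 to 0.34; adjusted p = 0.934). Its 2 other features gave -0.08 ± 0.12 and 0.05 ± 0.15 (SE). Without TBBC 1 the value was 0.11, without vehicle 2 it was 0.01, and within slide 1 it was -0.31.

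Slc4a1 encodes AE1 (band 3), the chloride-bicarbonate exchanger on the blood side of acid-secreting intercalated cells and the main membrane protein of red blood cells. Its level was 3.22, 2.75 and 2.89 in vehicle 1, 2 and 3 and 2.64, 1.93 and 1.23 in TBBC 1, 2 and 3. TBBC 1 was only just below the vehicle range, and TBBC 3 was far below it. The log2 fold change was -1.02 ± 0.35 (SE; 95% interval -1.88 to -0.16; adjusted p = 0.191), the only one of the 9 that reached 2-fold. The dimmer feature read -2.51, -2.85 and -2.81 in vehicle against -2.80, -3.78 and -4.34, so that TBBC 1 lay within the vehicle range, with -0.92 ± 0.38 (SE, adjusted p = 0.251). TBBC 2 and TBBC 3, both on slide 2, lay further below vehicle than TBBC 1. For the brightest feature, the log2 fold change was -0.32 within slide 1 and -0.90 with slide as a random block (adjusted p = 0.270). It was -1.37 without TBBC 1, -1.02 without TBBC 2 and -0.67 without TBBC 3 (adjusted p = 0.211 without TBBC 3).

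Slc4a1 and Car2 are shared by intercalated and red blood cells, and both were lowest in TBBC 3. Of 15 erythroid markers tested 0 passed (0 at an unadjusted p under 0.05), 10 had a mean below vehicle, and the median log2 fold change was -0.19. Their summed level, led by the globins Hba-a1 and Hbb-b1, ran from 804 to 894 in vehicle and was 813, 922 and 502 in TBBC 1, 2 and 3, so that TBBC 3 alone was below the vehicle range. Rhag, Gata1 and Trim10 of that list did not pass the filter on dim features. In TBBC 2 the erythroid sum was above the vehicle range while Slc4a1 and Car2 were below it. Of 15 intercalated cell markers tested 0 passed (0 at an unadjusted p under 0.05), 14 had a mean below vehicle, and the median was -0.22. Their summed level was 136 to 182 in vehicle and 132 to 147 in TBBC rats. TBBC 3 also lay outside the vehicle range in lists of other cell types. Its summed level was 35.5 for podocyte markers (48.1 to 53.7 in vehicle) and 183 for leukocyte markers (86.3 to 104 in vehicle). The part of these cell types in the values of Slc4a1 and Car2 was not tested.

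**Figure D2:**
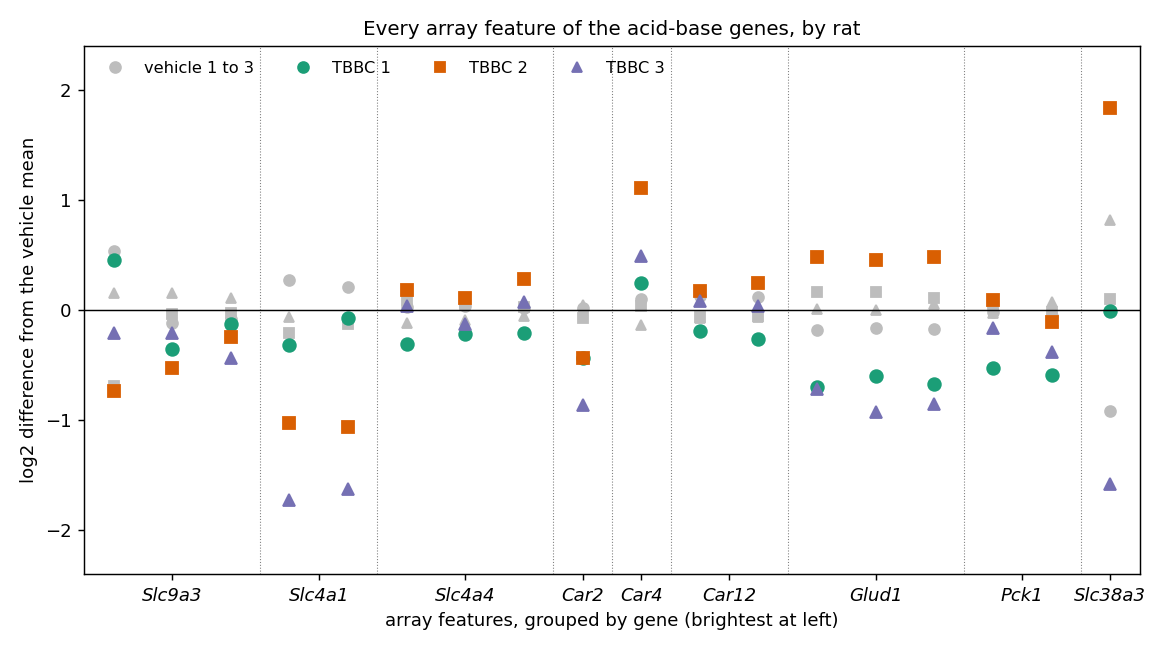
Each of the 18 array features of the 9 genes, as the log2 difference of each rat from the mean of the vehicle rats, brightest feature of a gene at left. The 3 features of Glud1 and the 2 of Slc4a1 repeat the same order of the TBBC rats, while the brightest feature of Slc9a3 spreads more among the vehicle rats than its 2 others.

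The ammonia-making genes differed more between TBBC rats than between the groups. Slc38a3 encodes SNAT3, which brings glutamine into proximal cells from the blood and is known to increase in acidosis. It read -1.38, -0.36 and 0.36 in vehicle and -0.47, 1.37 and -2.04 in TBBC 1, 2 and 3. TBBC 2 was above and TBBC 3 below every vehicle rat, and the vehicle rats themselves spanned 1.74 log2 units. The log2 fold change of 0.08 ± 0.89 (SE; 95% interval -2.07 to 2.23; adjusted p = 0.973) therefore leaves changes of up to 4.70-fold upward within its interval. Only 1 feature measured this gene. Without TBBC 2 the value was -0.80, without vehicle 1 it was -0.38, and without TBBC 3 it was 0.91.

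Glud1 encodes glutamate dehydrogenase, the mitochondrial enzyme that frees ammonium from glutamate. Its level was 6.22, 6.56 and 6.41 in vehicle rats and 5.70, 6.88 and 5.68 in TBBC rats. TBBC 1 and TBBC 3 lay below every vehicle rat and TBBC 2 lay above every one, and the SD was 3.93 times that of the vehicle rats. All 3 features of Glud1 showed this order, with log2 fold changes from -0.31 to -0.35. The brightest gave -0.31 ± 0.34 (SE; 95% interval -1.13 to 0.51; adjusted p = 0.660). Without TBBC 2 it was -0.70 (adjusted p = 0.129), and within slide 1 it was also -0.70. Without TBBC 1 or TBBC 3 it was -0.12 and -0.11.

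Pck1 encodes the cytosolic phosphoenolpyruvate carboxykinase, which takes the carbon skeleton of glutamine toward glucose and is a classical acid-responsive gene of the kidney. Its brightest feature was very even in vehicle rats, at 7.88, 7.95 and 7.87, and read 7.37, 7.99 and 7.74 in TBBC rats. TBBC 2 was above the vehicle range and the other two below it. The log2 fold change was -0.20 ± 0.17 (SE; 95% interval -0.61 to 0.21; adjusted p = 0.559). The second feature read 7.17, 7.21 and 7.30 against 6.64, 7.11 and 6.84, with all TBBC rats below the vehicle range and -0.36 ± 0.15 (SE, adjusted p = 0.242). For the brightest feature, the value was -0.53 within slide 1, -0.35 after quantile normalization or without TBBC 2, and -0.04 without TBBC 1. The 2 features thus disagreed on whether TBBC 2 was above or below vehicle.

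Across the 9 genes, TBBC 2 was the highest of the TBBC rats in 6 and the lowest in 1, whereas it was highest in 30.2% and lowest in 36.7% of all transcripts. It lay above the vehicle range in 6 genes (Slc4a4, Car4, Car12, Glud1, Pck1 and Slc38a3), and below it in 3, against 34.4% and 41.8% of all transcripts. TBBC 1 lay above the range in 1 gene and below it in 6 (33.2% and 35.9% of all transcripts), and TBBC 3 above it in 1 and below it in 5 (34.3% and 37.0%). The array of TBBC 2 had the lowest 75th percentile of signal, 861 against 941 to 1038 on the others. Its share of features well above background was also the lowest (67.1%). The part of scaling in the order of the TBBC rats was not tested. Of 11 tubular injury markers 2 rose (Havcr1 and Spp1) and 0 fell, where 0.531% of all transcripts passed. Their summed levels were 197, 413 and 365 in TBBC 1, 2 and 3 against 43.4 to 44.9 in vehicle rats. Spp1, the brightest of them in TBBC rats, read 7.23, 7.94 and 7.93 there and 2.93, 2.29 and 2.43 in vehicle rats. The part of injury in the order of the TBBC rats was not tested.

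Among the other genes of the pathway, Pck2 and Car13 rose. In all, 106 further genes were written into 5 lists, 99 could be tested, 2 rose, 0 fell and 97 did not pass, and their median log2 fold change was -0.14. The share of 2.02% that passed stands beside 0.531% of all transcripts. The lists were chosen with earlier results of these data known, so the 2 shares give no test of an excess.

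Pck2 encodes the mitochondrial phosphoenolpyruvate carboxykinase, which catalyses the same reaction as Pck1 inside mitochondria. It rose from 2.35, 2.55 and 2.45 in vehicle to 4.45, 4.08 and 4.19 in TBBC rats. Every TBBC rat was more than 1 log2 unit above every vehicle rat. The change was 3.46-fold, a log2 fold change of 1.79 ± 0.13 (SE, adjusted p = 0.0140 in limma), and its 2 other features gave 1.89 and 1.69. Within slide 1 the value, from 1 TBBC rat, was 2.00. The call held without any single TBBC rat and was lost without any single vehicle rat (adjusted p from 0.0853 to 0.111). The log2 ratio of Pck2 to Pck1 within an array, taken from the vehicle mean, was 2.53, 1.54 and 1.90 in TBBC 1, 2 and 3 and from -0.08 to 0.05 in vehicle rats. This ratio separated the groups, as Pck2 alone did, so it is no separate result. The pair was also set side by side after its values were seen.

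The regions before the starts of Pck1 and Pck2 are shown because these genes share a reaction and had unlike values here. Both are the 250 bases before the RefSeq start in GRCr8, on the plus strand, at chr3:182348322-182348571 for Pck1 and chr15:32997603-32997852 for Pck2. Capitals mark a cAMP response element, TTACGTCA, in Pck1, whose first base is at -93 from the start, and a match to the C/EBP-ATF response element TGATGNAA in Pck2, which starts at -239, lies on the opposite strand and reads TTACATCA here.
Pck1: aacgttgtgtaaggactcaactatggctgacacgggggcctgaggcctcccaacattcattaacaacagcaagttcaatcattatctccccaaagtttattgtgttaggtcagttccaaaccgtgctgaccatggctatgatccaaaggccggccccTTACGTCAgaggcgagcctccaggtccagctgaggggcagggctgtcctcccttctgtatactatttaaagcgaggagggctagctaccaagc
Pck2: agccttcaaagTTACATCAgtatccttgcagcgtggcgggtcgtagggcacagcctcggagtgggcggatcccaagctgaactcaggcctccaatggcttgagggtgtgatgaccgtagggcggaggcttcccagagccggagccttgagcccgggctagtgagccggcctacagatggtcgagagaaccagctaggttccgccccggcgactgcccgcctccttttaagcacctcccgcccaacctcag

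Searched on both strands, TTACGTCA was present in 0.75% and TGATGNAA in 3.4% of the 33469 promoter windows of this length. Of the 9 genes, 6 had a window there (Slc9a3, Pck1, Car12, Car4, Slc4a4 and Glud1), and among them Pck1 alone held TTACGTCA and none held TGATGNAA. The palindrome TGACGTCA (1.59% of all windows) and the antioxidant response core TGACNNNGC (10.1%) were in none of the 6. These matches describe letters and were not related to binding or to the measured values.

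**Figure D3:**
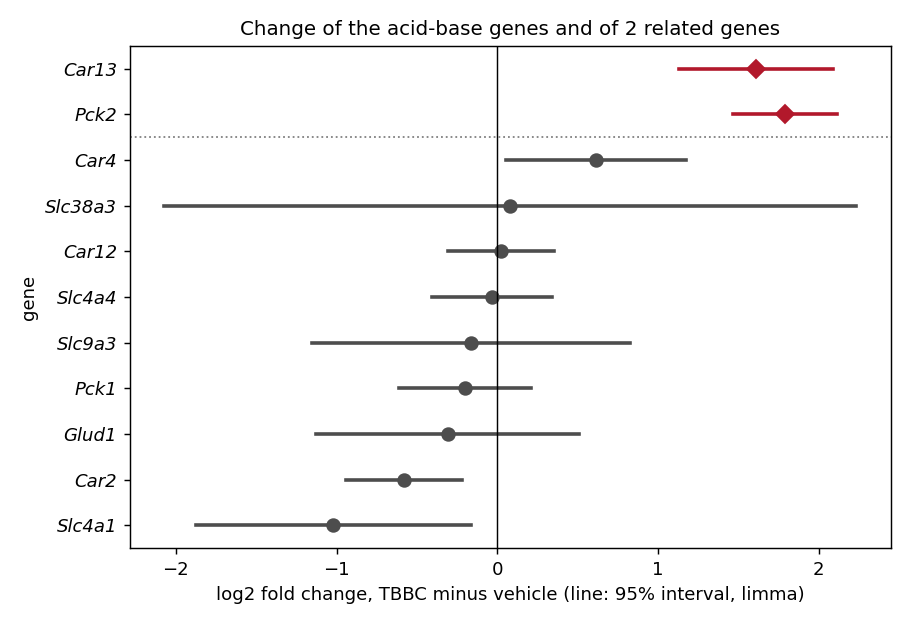
Log2 fold change, TBBC minus vehicle, with its 95% interval from limma (not adjusted for the number of genes) for the 9 acid-base genes (circles) and, above the dotted line, Pck2 and Car13 (diamonds); red marks an adjusted p under 0.05. The widest interval, that of Slc38a3, runs from -2.07 to 2.23, and the values of Slc4a4 and Car12 lie closest to 0.

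Car13, a cytosolic carbonic anhydrase, rose from -5.03, -5.27 and -5.15 to -3.37, -3.29 and -3.95. All TBBC rats were above all vehicle rats, and the change was 3.05-fold, a log2 fold change of 1.61 ± 0.20 (SE, adjusted p = 0.0388 in limma). For Car13, 2 other features were below the well-above-background mark in every vehicle rat and above it in 2 of 3 TBBC rats, so they were not tested. With vehicle rats raised to the lowest level well above background, their TBBC means were 1.20-fold and 1.75-fold higher. Those means include the TBBC rat below the mark. For this dim feature the value depended on the background correction, at 0.84 with normexp on the median signal (adjusted p = 0.0279 in limma). Within slide 1 it was 1.78, from 1 TBBC rat. The call ended with slide as a random block (adjusted p = 0.0505) and with the omission of any rat other than TBBC 3. Among 10 further carbonic anhydrases tested, Car13 was 1 that rose, 0 fell and 9 did not pass, with a median of -0.17. Car5b, a mitochondrial form, was at -1.28 ± 0.22 (SE, adjusted p = 0.0721) with all TBBC rats below vehicle, and Car1, the erythroid form, which is also in the erythroid list, at -0.26 ± 0.11 (SE, adjusted p = 0.267).

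Of 30 further genes of glutamine uptake, ammonia production and carbon disposal, 1 rose (Pck2), 0 fell and 29 did not pass, with a median of -0.04. Gpt2, a mitochondrial alanine aminotransferase, was at 0.70 ± 0.18 (SE, adjusted p = 0.119), and Slc7a7, a basolateral amino acid exchanger subunit, at -0.43 ± 0.11 (SE, adjusted p = 0.129). Of 23 further bicarbonate and proton transporters and their partners 0 passed (8 at an unadjusted p under 0.05), 16 had a mean below vehicle, and the median was -0.16. Pdzk1, a scaffold of the brush border, was at -0.62 ± 0.11 (SE, adjusted p = 0.0696). The bicarbonate cotransporters Slc4a5 and Slc4a7 were at -1.41 ± 0.27 (SE, adjusted p = 0.0800) and 1.30 ± 0.33 (SE, adjusted p = 0.121). The Slc4a5 feature was well above background in 2 of 3 TBBC rats. A second feature of Slc4a5 was not well above background in any TBBC rat and at least 2.57-fold higher in vehicle, and passed when every feature was tested alone (adjusted p = 0.00654).

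All 11 tested genes of ammonium transport and the proton pump had a mean below vehicle, with a median of -0.30, yet 0 passed (2 at an unadjusted p under 0.05). Those 2, Atp6v0d1 and Atp6ap2, are not among the intercalated cell markers. A mean below vehicle was found in 53.5% of all transcripts. Among tubule marker lists it was found in 13 of 14 proximal, 14 of 15 intercalated and 6 of 8 thick ascending limb markers. It was also found in 4 of 7 principal cell and 3 of 6 distal convoluted and connecting tubule markers. Among the remaining lists it was found in 7 of 8 podocyte, 8 of 11 endothelial and 10 of 15 erythroid markers. For fibroblast, leukocyte and tubular injury markers the counts were 2 of 7, 3 of 12 and 0 of 11. In 4 of the 11 the TBBC rats lay below all vehicle rats, against 15.2% of all transcripts. The list is not separate from the marker lists: 6 of the 11 (Atp6v0d2, Atp6v1b1, Atp6v1c2, Atp6v1g3, Rhbg and Rhcg) are also intercalated cell markers, and Slc12a1 is also a marker of the thick ascending limb, whose summed marker level was 563 to 627 in vehicle and 300 to 549 in TBBC rats. The pump subunit Atp6v0d1 was at -0.49 ± 0.12 (SE, adjusted p = 0.117), the pump-associated Atp6ap2 at -0.32 ± 0.11 (SE, adjusted p = 0.189) and the subunit Atp6v1c2 at -0.34 ± 0.14 (SE, adjusted p = 0.251). Of 25 acid sensors and regulators 0 passed (6 at an unadjusted p under 0.05), with a median of -0.11. Edn1, the peptide endothelin 1, which stimulates acid secretion, was at 1.53 ± 0.25 (SE, adjusted p = 0.0641). Hnf4a, a transcription factor of proximal tubule cells, was at -0.57 ± 0.11 (SE, adjusted p = 0.0845), and Stc1, the hormone stanniocalcin 1, at -0.60 ± 0.19 (SE, adjusted p = 0.164).

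**Figure D4:**
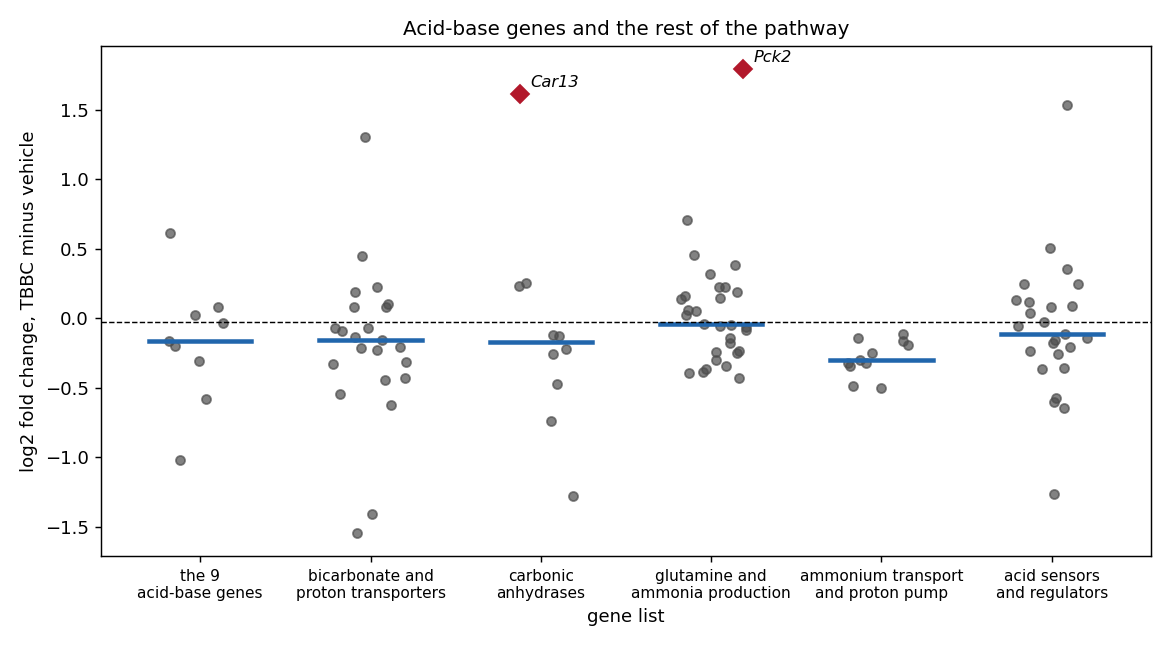
Log2 fold change, TBBC minus vehicle, of each tested gene in the 9 acid-base genes and the 5 further lists; blue lines are list medians, the dashed line is the median of all transcripts (-0.02) and red diamonds mark an adjusted p under 0.05. Pck2 and Car13, which passed, are at 1.79 and 1.61, close to Edn1 at 1.53, which did not pass, and all 11 genes of ammonium transport and the proton pump lie below 0.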

How the data were processed

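Processed spot intensity values were deposited by the authors, made with Agilent Feature Extraction 10.7.1.1 from 1-colour (Cy3) arrays, per the file headers. The deposited value table holds a linear ratio, within 0.232% of the processed signal over the 75th percentile, and served as an alternative. Replicates are biological per the series' design text. Of 61537 non-control features, 28206 were named by matching accessions without versions to RefSeq genes of GRCr8; the headers name another build (rn4), so no coordinates were taken for features.

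Each array's 75th percentile was divided out and log2 taken. A feature was tested if well above background on every array of at least 1 group; a gene stands as its brightest tested feature. All 32956 transcripts were fitted two-sided in limma 3.58.1 (functions lmFit, eBayes; R 4.3.3; statmod 1.5.0 for the random block) with Benjamini-Hochberg adjustment. The number of arrays limits the precision. The fit was tested on simulated data. Genes named outside the 9 are those past the threshold and the 3 with the smallest p in each pathway list, plus the brightest markers of a cell type list; the untested erythroid markers and the genes shared between lists are also named, outside that rule. The 9 genes and all lists were chosen with earlier results of these data known. Promoter windows are from RefSeq (GRCr8); Car2, Slc4a1, Slc38a3 and Car13 were not matched there.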

Additional observations from a re-analysis of the deposited data

How the results depend on the processing

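The count of 0 of 9 acid-base genes past the threshold was the same under all 23 alternatives (scaling, background correction, the authors' table, filters, features, variance model, slide, replicate number and each rat left out). Slc4a1, Car2, Car4, Glud1 and Pck1 kept their sign in all 23. A fixed slide term, like slide 1 alone, turned the sign of log2 fold changes for Slc9a3 (0.45), Car12 (-0.19) and Slc38a3 (-0.0122); Car12 also turned with array weights (-0.00199) and slide as a random block (-0.0125). With 1 rat left out the values ran from -0.51 to 0.12 for Slc9a3, -0.14 to 0.11 for Slc4a4, -0.0523 to 0.13 for Car12 and -0.80 to 0.91 for Slc38a3. The 175 calls over all transcripts became 761 with normexp on the median signal, 52 with no filter, 290 with the feature of smallest spread, 333 with every feature alone, 1087 with trend and robust, 48 with slide as a fixed term, 307 within slide 1, and 6 to 274 with 1 rat left out. Same-numbered rats did not deviate together over all transcripts (correlations -0.09, 0.03 and -0.07, against -0.13 to 0.21 between rats of unlike number). The labels state no pairing, and these correlations cannot exclude one. With the replicate number as a block limma made 0 calls (5366 transcripts at an unadjusted p under 0.05). Pck2 and Car13 lost theirs (adjusted p = 0.109 and 0.124). With slide as a fixed term Car13 was lost (adjusted p = 0.155), and with no filter as well (0.0838). Slide 1 holds 1 TBBC rat, assumed there to vary like the vehicle rats. With 3 rats a group, changes of the size seen in Car2 or Car4 did not pass the adjustment over all transcripts.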
